A study of Saccharomyces cerevisiae with 6 samples.

Results

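The 30 genes described here encode most of the machinery that builds, divides and distributes peroxisomes in budding yeast, Saccharomyces cerevisiae. They are 25 PEX genes for peroxins, the inheritance genes INP1 and INP2, the ATP carrier gene ANT1, and PIP2 and OAF1, which encode the activators of the oleate response. They were picked by name from the 6445 genes of the deposited tables, and all 30 were found and passed the filter on low counts. RNA was compared between a β-carotene-producing strain, with the genotype label CrtI/E/YB after carotenoid synthesis genes, and CEN.PK2-1C, the haploid parent strain labelled WT, with 3 libraries of each. Both strains were harvested after 18 h in rich glucose medium (YPD) at 30 °C with shaking at 250 rpm, and no other treatment is given in the labels. The sources used here do not say where the carotenoid genes were inserted, which promoters drive them or whether the producer is a single clone, and the inserted genes' own transcripts were not analysed here.

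Peroxisomes are organelles bounded by a single membrane, and in yeast they are the site of fatty acid β-oxidation. Their matrix enzymes are made in the cytosol and carried in by receptors that read short targeting signals, dock at the membrane, release the cargo and are then ubiquitinated and pulled out again. Glucose keeps peroxisomes few, and oleate as carbon source enlarges and multiplies them. That induction runs through Oaf1 and Pip2, zinc cluster proteins that bind together to the oleate response element, and through the glucose-repressed activator Adr1.

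Libraries held 48383161 to 58296520 estimated counts, and the lowest count of any of the 30 genes in any library was 1107, for PEX34. The part of counting error in the spread between libraries was not estimated gene by gene, and it need not be small where replicates nearly coincide. GAL80, whose transcript separates the strains, had 0, 0 and 2 counts in the producer and 4891 to 6267 in the parent. The labels do not tie the numbered replicates to separate cultures, and each p-value therefore reflects only how far these libraries differ, a spread that may be technical. Values are shares of a culture's RNA, so fewer cells in a given state and less RNA per cell cannot be told apart. The libraries also differ in how level follows the GC content of the gene, and parent replicate 2 lies farthest from the others in this respect. For its deviation from the mean of the 6 libraries, Spearman's rho against GC content was -0.647 across 6063 genes, which are not independent replicates, and values corrected for this trend are given beside the main ones for the genes described in detail.

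The oleate response element links the activators to the genes they control, so its matches in front of the 30 genes are shown before the transcript levels. The element was searched as CGGN3TNA, a spacer of 8 to 12 bases and CCG, on both strands, in the 500 bases before each start codon of the R64 reference genome (strain S288C, the build behind sacCer3, and not the CEN.PK sequence). It was found before 8 of the 30 genes, or 26.7%, against 127 of 5980 promoters searched in all, or 2.12%. Each line gives the match in the direction of the gene with 10 bases on either side, and capitals mark the CGG and CCG triplets and the T and A of TNA, in the orientation or orientations that matched.
PIP2: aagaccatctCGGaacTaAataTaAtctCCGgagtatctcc
PEX11: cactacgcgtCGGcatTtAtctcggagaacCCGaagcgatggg
ANT1: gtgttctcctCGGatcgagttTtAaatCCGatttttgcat
PEX5: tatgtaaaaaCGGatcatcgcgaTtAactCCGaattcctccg
PEX2: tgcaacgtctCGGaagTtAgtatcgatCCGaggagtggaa
PEX13: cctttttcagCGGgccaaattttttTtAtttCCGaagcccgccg
PEX17: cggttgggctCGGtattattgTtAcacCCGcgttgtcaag
PEX6: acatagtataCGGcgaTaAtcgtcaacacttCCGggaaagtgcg

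All 8 matches began between 119 and 175 bases before the start codon. The PIP2 match lies at chrXV:1023348-1023368 and is a match on both strands, the gene itself being on the minus strand. The PEX11 match lies at chrXV:48756-48778, between PEX11 and the divergent gene PSF3, whose coding sequence starts 220 bp away. The 6 other matches are at chrXVI:792355-792374 for ANT1, chrIV:950388-950409 for PEX5, chrX:36751-36770 for PEX2, chrXII:537116-537139 for PEX13, chrXIV:245498-245517 for PEX17 and chrXIV:22754-22777 for PEX6. OAF1 had no match in this window. The short motif of Adr1, searched as TTGGAG or TTGGGG on both strands, was found before 8 of the 30 genes, or 26.7%, near the 26.2% of all promoters, and PIP2, PEX11 and PEX6 held both motifs. A match describes these letters only and is not evidence of binding.

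After 18 h in YPD the transcripts of all 30 genes were at moderate levels. How much glucose was left at harvest is not known here, so these levels are not read as those of glucose-repressed cells. Their median was 91.4 CPM (counts relative to library size, scaled by TMM), against 96.3 CPM for the 6125 genes tested. Levels are compared between genes only per kilobase of coding length, and on that scale the median was 75.0 CPM per kb, against 76.9 for the 5924 tested genes with a coding length, and 15 of the 30 lay above that value. PEX11, whose product elongates the membrane before division, was highest at 228 CPM per kb as the mean of 6 libraries, and its lowest library lay above the highest library of PEX3. PEX3, the membrane anchor for membrane protein insertion, followed at 189 CPM per kb, then PEX5, the receptor for the C-terminal targeting signal, at 183 and PEX2, a RING finger ubiquitin ligase, at 156. At the low end stood PEX6, an AAA ATPase that extracts receptors, at 30.4 CPM per kb, and the inheritance genes INP1 at 31.4 and INP2 at 31.6. In this order 27 of 29 neighbouring genes had ranges over the 6 libraries that overlapped, the exceptions being PEX11 above PEX3 and PEX32 above INP2, so most single places in it are not separated by the spread. PEX32 and INP2 also overlapped when libraries were scaled by their totals only.

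**Figure D1:**
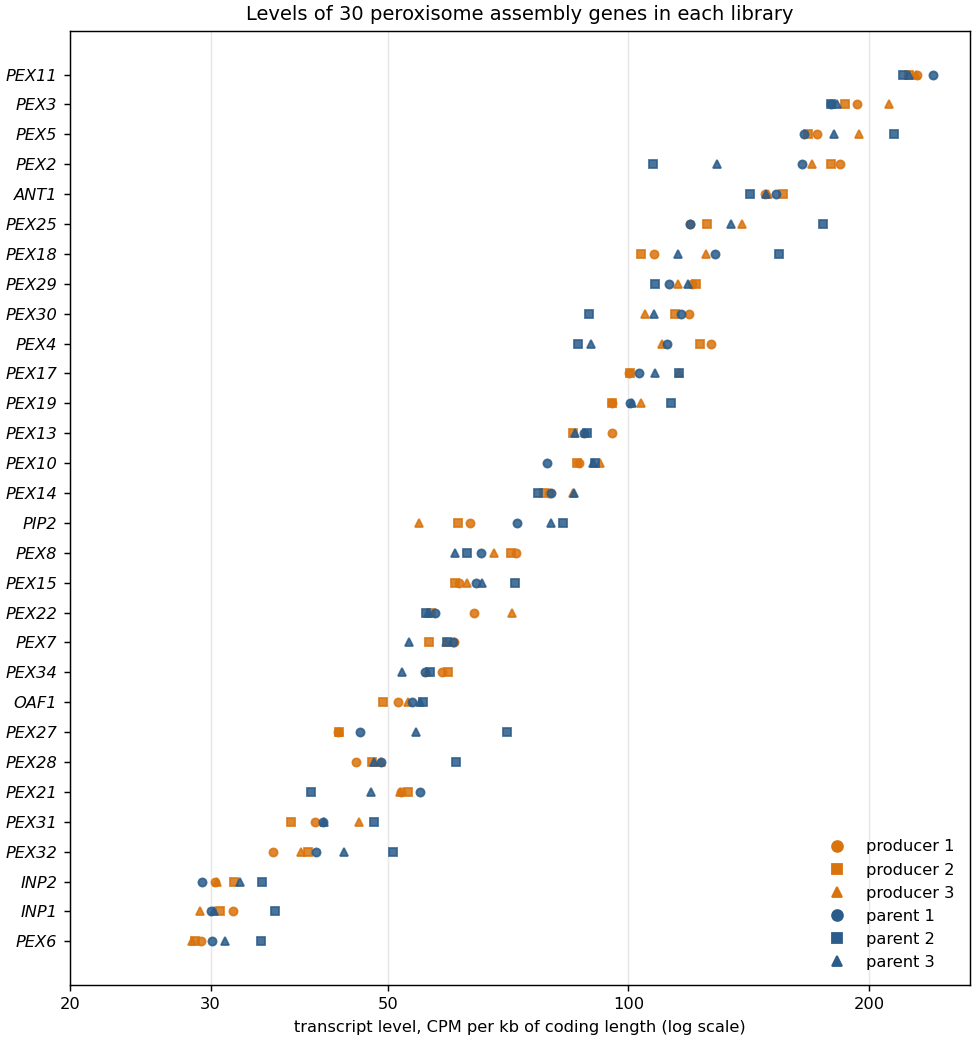
Level of each of the 30 genes in CPM per kb of coding length (log axis), with 1 point per library, orange for the producer and blue for the parent, ordered by the mean of 6 libraries. PEX11 stands alone at the top near 228 and PEX6, INP1 and INP2 lie at the bottom near 30.4 to 31.6, and points of both colours mix in most rows.

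None of the 30 genes passed the test between strains. In edgeR's quasi-likelihood test, adjusted over 6125 genes, 0 were higher and 0 were lower in the producer, where 0.800% of all genes were called higher, 0.343% lower and 1.14% either way. At an unadjusted p under 0.05 there were 6 of 30 genes, a smaller share than the 27.3% over all genes tested: PIP2, PEX2, PEX4, PEX27, PEX8 and PEX32. DESeq2 called 2 of the 30, PIP2 and PEX2, where it called 13.7% of all genes, and limma-voom called 0, where it called 64 of 6125. The median log2 fold change, producer over parent, was -0.03, with 14 genes above 0 and 16 below, beside a median of -0.0073 over all genes tested, and the range was -0.39 to 0.41. The strains did not overlap in 9 genes, or 30.0%, which is near the 33.7% of all genes. Of these 9, 3 were higher and 6 lower in the producer, where the same was true of 16.6% and 17.2% of all genes.

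In the main fit, intervals bounded most of these differences for these libraries, whose spread may be technical. For 28 of the 30 genes the 95% interval of the fold change, taken gene by gene, lay inside 1.5-fold in either direction, against 81.8% of all genes tested. The exceptions to the wider bound were PEX2, with a log2 interval of 0.10 to 0.71, and PEX27, with -0.70 to -0.08. A p that misses the threshold does not show that a gene was the same in both strains, and 6 of the intervals did not span 0. These intervals do not allow for the GC trend, and those of the corrected fit were not computed. After the GC-content correction PEX2 was at 0.17 ± 0.08, PEX27 at -0.07 ± 0.07 and PEX34 at 0.34 ± 0.11, so which genes stay within the bound depends on the fit.

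**Figure D2:**
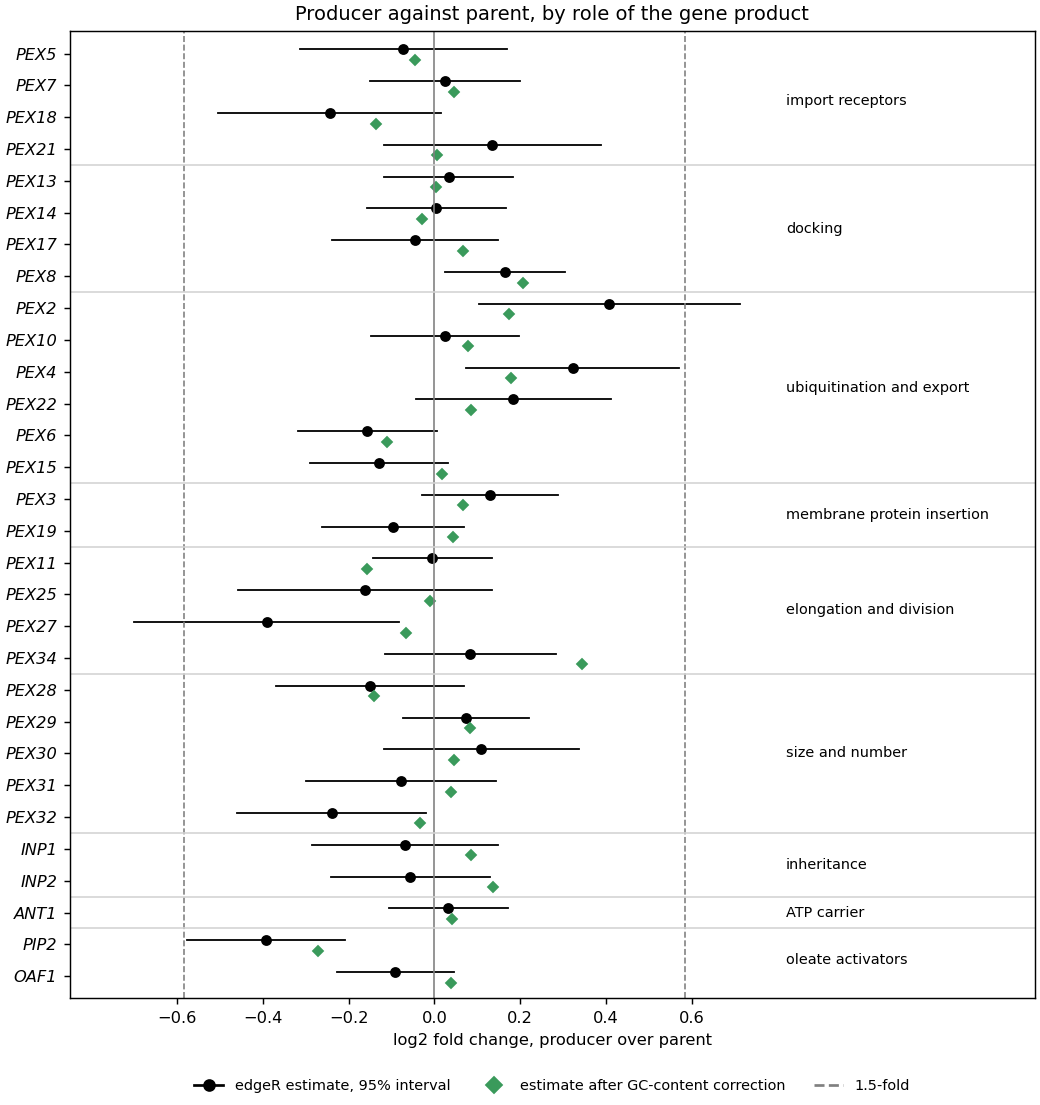
Log2 fold change of each gene, producer over parent, grouped by role, with black points for the edgeR estimate, bars for its 95% interval and green diamonds for the estimate after the GC-content correction. Dashed lines mark 1.5-fold, which only the intervals of PEX2 and PEX27 cross, and the green diamonds of both lie closer to 0 than the black points.

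The receptors that carry enzymes to the peroxisome stood at similar levels in both strains. PEX5 (YDR244W, chromosome IV, 950563 to 952401, plus strand) was at 317, 309 and 357 CPM in the producer and at 305, 395 and 333 CPM in the parent. Its groups overlapped, with the lowest and the highest value both in the parent, and the log2 fold change was -0.07 ± 0.11 (SE). PEX7, the receptor for the N-terminal targeting signal, was at 68.2, 63.5 and 66.6 CPM against 68.0, 66.9 and 59.9, a log2 fold change of 0.03 ± 0.08. In the main fit both receptors had intervals that spanned 0 and lay inside 1.5-fold.

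PEX18 and PEX21 encode co-receptors that Pex7 needs to bring its cargo in. PEX18 was at 91.7, 88.2 and 107 CPM in the producer and 109, 132 and 98.4 CPM in the parent, with overlapping groups and a log2 fold change of -0.24 ± 0.11 (adjusted p = 0.204), or -0.14 ± 0.10 after the GC-content correction and -0.12 without parent replicate 2. PEX21 was at 45.0, 45.9 and 44.9 CPM against 47.6, 34.7 and 41.3, so the producer libraries lay close together inside the parental range, with a log2 fold change of 0.14 ± 0.11. That of PEX21 was 0.0070 ± 0.08 after the GC-content correction, 0.03 without parent replicate 2 and 0.25 without parent replicate 1. Per kilobase, PEX18 exceeded PEX21 in every library, by 1.96 to 2.42 times in the producer and 2.34 to 3.86 times in the parent, where replicate 2 gave the 3.86.

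At the docking step the subunits kept within narrow limits. PEX14 and PEX13, which form the membrane complex that receives loaded receptors, had log2 fold changes of 0.0047 ± 0.07 and 0.03 ± 0.07, and PEX17, a further subunit of it in yeast, of -0.05 ± 0.09, or -0.03 ± 0.06, 0.0039 ± 0.06 and 0.07 ± 0.07 after the GC-content correction. Per kilobase the ratio of PEX13 to PEX14 ran from 1.00 to 1.20 over the 6 libraries and that of PEX17 to PEX14 from 1.26 to 1.50, with PEX17 above PEX14 in every library, and both ratios overlapped between the strains. PEX8, which joins the docking and RING complexes from the inner face of the membrane, was at 128, 126 and 120 CPM in the producer and 116, 111 and 107 CPM in the parent. Every producer library of PEX8 lay above every parental library, but the difference was small, 0.17 ± 0.06 on the log2 scale, and its adjusted p was 0.133. After the GC-content correction it was 0.21 ± 0.06 (adjusted p = 0.123).

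In the main fit, the genes for ubiquitination and export of the receptors included the largest positive differences. After the GC-content correction PEX34, at 0.34 ± 0.11, and PEX8, at 0.21 ± 0.06, lay above every gene of this group. PEX2 (YJL210W, chromosome X, 36919 to 37734, plus strand) was at 150, 146 and 138 CPM in the producer and at 135, 87.6 and 105 CPM in the parent. The groups did not overlap, although parent replicate 1 came close to the producer and parent replicate 2 lay far below. The log2 fold change was 0.41 ± 0.13 with an adjusted p of 0.108, and 0.27 without parent replicate 2. PEX2 has the highest GC content of the 30 genes, 46.8%, and after the GC-content correction its log2 fold change was 0.17 ± 0.08 (adjusted p = 0.281). The part of the GC trend in its difference was not tested further.

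PEX4, the ubiquitin-conjugating enzyme of this step, had 70.1, 67.9 and 60.9 CPM in the producer and 61.6, 47.8 and 49.5 CPM in the parent. Its groups overlapped between producer replicate 3 and parent replicate 1, and its log2 fold change was 0.32 ± 0.11 (adjusted p = 0.112), or 0.18 ± 0.08 after the GC-content correction. PEX22, its membrane anchor, was at 34.8, 30.8 and 38.9 CPM against 31.1, 30.3 and 30.5, with overlapping groups and a log2 fold change of 0.18 ± 0.10, or 0.08 ± 0.10 after that correction. PEX10, the RING partner of PEX2, was at 0.02 ± 0.08, or 0.08 ± 0.07 corrected, and the ratio of PEX2 to PEX10 per kilobase was 1.84 to 2.13 in the producer and 1.18 to 2.09 in the parent. PEX6 and PEX15, the ATPase and the protein that anchors it, stood at -0.16 ± 0.07 and -0.13 ± 0.07. In both genes all producer libraries lay below all parental ones. Their values were -0.11 ± 0.06 and 0.02 ± 0.06 after the GC-content correction and -0.10 and -0.08 without parent replicate 2. The ratio of PEX6 to PEX15 was nearly constant, 0.452 to 0.481 over the 6 libraries.

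PEX3 and PEX19 insert proteins into the peroxisomal membrane, Pex19 as the soluble chaperone and Pex3 as its docking site. PEX3 (YDR329C, chromosome IV, 1126270 to 1127595, minus strand) was at 256, 247 and 281 CPM in the producer and at 238, 238 and 242 CPM in the parent. The groups did not overlap, and the log2 fold change was 0.13 ± 0.07 (adjusted p = 0.256), or 0.07 ± 0.07 after the GC-content correction and 0.08 without producer replicate 3. PEX19 was at 98.0, 98.1 and 107 CPM against 104, 116 and 104 CPM, an overlap with a log2 fold change of -0.10 ± 0.07, or 0.04 ± 0.06 corrected. The ratio of PEX3 to PEX19 per kilobase was 1.96 to 2.05 in the producer and 1.59 to 1.80 in the parent, and these ranges did not overlap.

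Among the genes for elongation and division, PEX11 (YOL147C, chromosome XV, 47933 to 48643, minus strand) had the smallest log2 fold change in size in the main fit. It was at 163, 160 and 163 CPM in the producer and 171, 157 and 160 CPM in the parent, a log2 fold change of -0.0049 ± 0.06 with a 95% interval of -0.14 to 0.13. After the GC-content correction the estimate was -0.16 ± 0.05 (adjusted p = 0.170). PEX25, of the same protein family, was at 142, 149 and 164 CPM against 142, 208 and 159, with the lowest libraries of both strains level and the highest value in parent replicate 2. Its log2 fold change was -0.16 ± 0.13, or -0.01 ± 0.10 after the GC-content correction and 0.01 without parent replicate 2.

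PEX27, also of the PEX11 family, had the lowest GC content of the 30, 32.4%. It was at 48.9, 49.2 and 49.2 CPM in the producer and at 52.2, 79.7 and 61.3 CPM in the parent. The 3 producer libraries nearly coincided, and the parental ones lay above them by very unequal amounts. The log2 fold change was -0.39 ± 0.14 (adjusted p = 0.117), -0.21 without parent replicate 2, and -0.07 ± 0.07 after the GC-content correction. PEX34, which acts with this family in setting peroxisome number, was at 0.08 ± 0.09, and at 0.34 ± 0.11 (adjusted p = 0.160) after that correction. PEX34 lies 18 bp from the convergent gene PRD1, and as no source states whether counting used strand, reads past the ends of such genes may not be separable.

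PEX28, PEX29, PEX30, PEX31 and PEX32 encode membrane proteins that regulate the size and number of peroxisomes, several of them from the endoplasmic reticulum. Their log2 fold changes ran from -0.24 ± 0.10 in PEX32 to 0.11 ± 0.10 in PEX30, and 0 of 5 passed. That of PEX30 was 0.05 ± 0.08 after the GC-content correction and 0.0073 without parent replicate 2. PEX32 was at 44.6, 49.4 and 48.4 CPM in the producer and at 50.4, 63.0 and 54.7 CPM in the parent, without overlap, with an adjusted p of 0.156 and -0.03 ± 0.06 after the GC-content correction. PEX29 was at 198 ± 5.57 CPM in the producer and 188 ± 9.01 CPM in the parent (SD, n = 3), and exceeded PEX28 per kilobase in every library, the ratio of PEX28 to PEX29 being 0.380 to 0.425 in the producer and 0.405 to 0.564 in the parent. PEX30 exceeded PEX31 and PEX32 in every library, by 2.28 to 3.02 and 2.69 to 3.31 times in the producer and by 1.86 to 2.81 and 1.76 to 2.87 times in the parent. PEX29 lies 38 bp from the convergent gene SNM1, with the same limit as for PEX34.

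INP1, which holds peroxisomes in the mother cell, and INP2, the receptor by which the myosin motor carries them to the bud, were at -0.07 ± 0.10 and -0.06 ± 0.08, or 0.09 ± 0.08 and 0.14 ± 0.06 after the GC-content correction. Their ratio per kilobase was near 1.00 in all libraries, 0.954 to 1.05 in the producer and 0.927 to 1.04 in the parent. ANT1, the carrier that brings ATP into the organelle for fatty acid activation, was at 146, 154 and 147 CPM in the producer and 151, 140 and 147 CPM in the parent. The groups of ANT1 overlapped, with the highest library in the producer and the lowest in the parent, and a log2 fold change of 0.03 ± 0.06 and a 95% interval of -0.11 to 0.17.

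PIP2, encoding the oleate-inducible subunit of the Oaf1 and Pip2 activator, was the gene closest to the threshold. PIP2 (YOR363C, chromosome XV, 1020222 to 1023212, minus strand) was at 189, 183 and 164 CPM in the producer and at 217, 248 and 239 CPM in the parent. Every producer library lay below every parental one, by a gap larger than the SD within either strain, 179 ± 13.5 against 235 ± 15.9 CPM (SD, n = 3). The log2 fold change was -0.39 ± 0.08, a fitted ratio of 0.761, with a 95% interval of -0.58 to -0.21 and an adjusted p of 0.0609 in edgeR's test. It was -0.27 ± 0.07 after the GC-content correction (adjusted p = 0.103). The adjusted p lay between 0.00159 and 0.893 over the 18 alternative settings and was under 0.05 in 3 of them, DESeq2, upper-quartile scaling and the fit without parent replicate 1. Those 3 called 13.7%, 1.34% and 17.5% of all genes, and the direction of PIP2 was negative in all 18.

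OAF1, which encodes the constitutive subunit, differed less. OAF1 was at 162, 155 and 166 CPM in the producer and 168, 174 and 173 CPM in the parent, so the groups were separated by a narrow gap. Its log2 fold change was -0.09 ± 0.06 (adjusted p = 0.342), and 0.04 ± 0.06 after the GC-content correction. Per kilobase, PIP2 exceeded OAF1 by 1.03 to 1.24 times in the producer and by 1.35 to 1.50 times in the parent, and these ranges did not overlap.

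**Figure D3:**
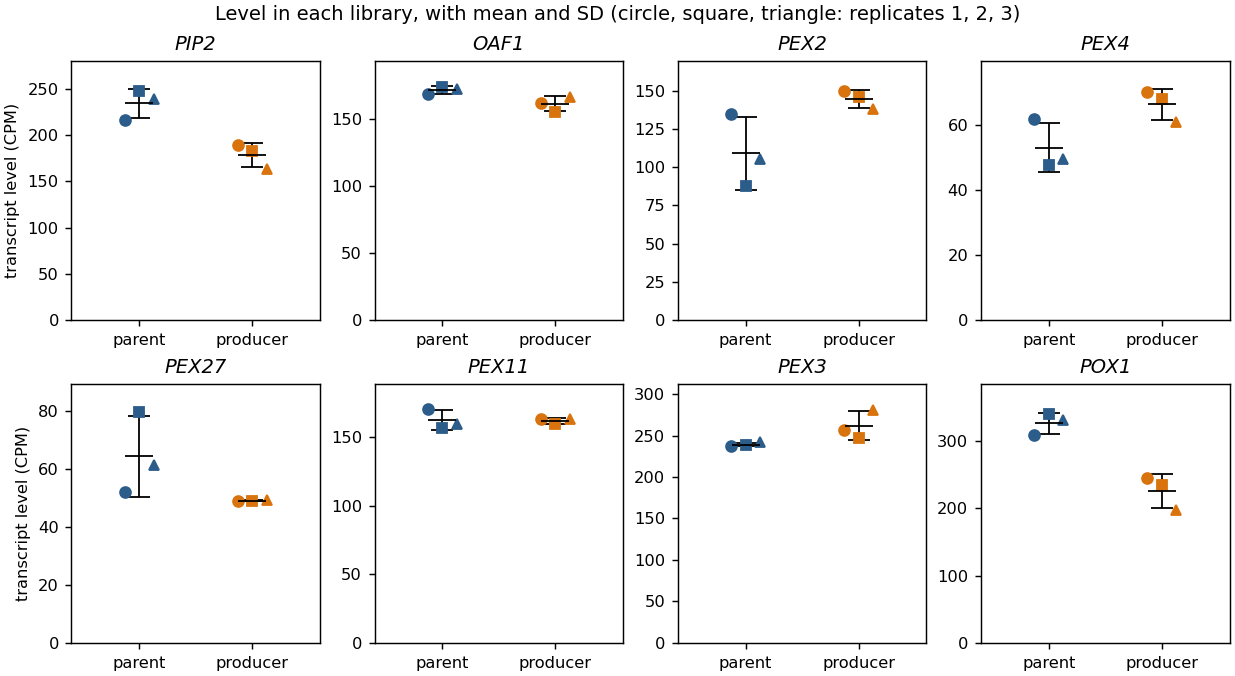
Level in CPM of 7 of the genes and of POX1 in each library (circle, square and triangle for replicates 1, 2 and 3), with the mean and SD of 3 libraries and axes from 0. PIP2, POX1, OAF1, PEX2, PEX3 and PEX27 do not overlap between the strains, and PEX4 and PEX11 do. PEX2, PEX4 and PEX27 have a parental replicate 2 far from replicate 1, and the means of PEX11 are nearly level.

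Ratios within a library do not depend on the scaling between libraries, and 17 pairs of partner or related genes were compared in this way. The ratios were not corrected for GC content, and its trend can remain in them where the genes of a pair differ in GC content. In 3 pairs the strains did not overlap: PIP2 to OAF1, with a log2 difference of -0.30, PEX3 to PEX19, with 0.22, and PEX25 to PEX27, with 0.22. Each reached p = 0.1 in an exact permutation test, two-sided, which is the smallest p that 3 against 3 libraries allow, and the value adjusted over the 17 pairs was 0.425, so no ratio could be called different. The other 14 pairs overlapped, and the share among other gene pairs was not computed. For PEX3 and PEX19 the log2 fold changes were 0.13 and -0.10, or 0.07 and 0.04 after the GC-content correction. For PEX25 and PEX27 they were -0.16 and -0.39, or -0.01 and -0.07 corrected. For PIP2 and OAF1 they were -0.39 and -0.09, or -0.27 and 0.04 corrected.

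The spread between replicates was unequal. The coefficient of variation was larger in the parent than in the producer for 23 of the 30 genes, with medians of 7.11% and 4.29%. Parent replicate 2 was the highest of all 6 libraries for 14 genes and the lowest for 9, so it was an extreme for 23 of 30. As a description across the 30 genes, which share the same 6 libraries, Spearman's rho against GC content was -0.745 for its deviation and 0.685 for the log2 fold change. After the GC-content correction the latter was 0.0647, 19 of 30 log2 fold changes were smaller in size, and the median size went from 0.10 to 0.07. This was not particular to the 30 genes. Over all genes rho of the log2 fold change with GC content was 0.641 before correction, and the median size went from 0.14 to 0.09. The corrected fit called 0 of the 30 where it called 1.20% of all genes. The fit without parent replicate 1 called 4 of the 30, PEX2, PEX4, PEX27 and PIP2, where it called 17.5% of all genes, and each fit without another library called 0.

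**Figure D4:**
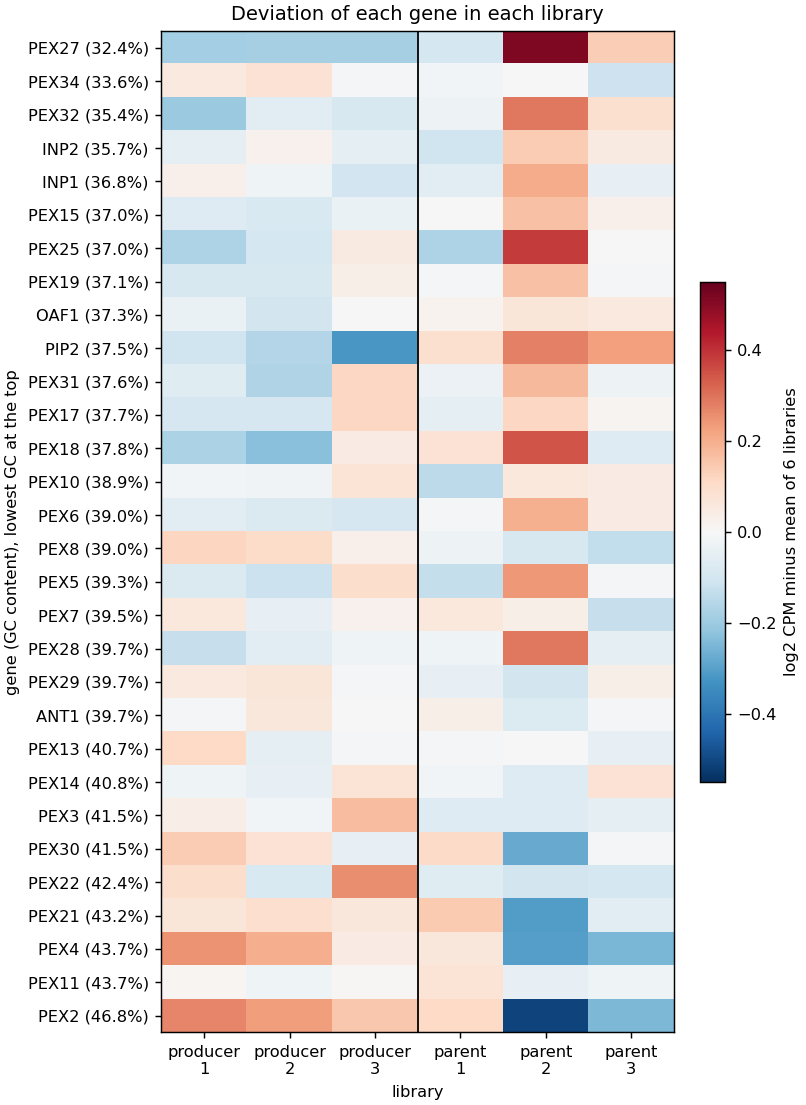
Log2 CPM of each gene in each library minus its mean over the 6 libraries, with genes ordered by GC content from 32.4% (PEX27, top) to 46.8% (PEX2, bottom). Parent replicate 2 is red for most genes at the top and blue for most at the bottom, and the row of PIP2 is blue in the 3 producer libraries and red in the 3 parental ones.

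The genes for the enzymes that peroxisomes import were read beside the assembly genes. This list of 21 genes for β-oxidation, other matrix enzymes and fatty acid transport was chosen with earlier results of these data known. Of them 0 rose, 1 fell and 20 did not pass, where 1.14% of all genes were called. At an unadjusted p under 0.05 there were 11, or 52.4%, against 27.3% of all genes, and 11, or 52.4%, were without overlap, against 33.7%. The median log2 fold change was -0.06. After the GC-content correction 7 of 21 had an unadjusted p under 0.05, against 1164 of 6063 genes, and the median was -0.13. The gene that fell was POX1, acyl-CoA oxidase, the entry enzyme of β-oxidation. POX1 was at 245, 235 and 197 CPM in the producer and at 309, 340 and 330 CPM in the parent, with clear separation, a log2 fold change of -0.53 ± 0.09 and an adjusted p of 0.0361. The call was lost in 6 of 18 alternatives, which were the fits without any of the producer replicates or without parent replicate 3, with the library total as a covariate, and with the GC-content correction and replicate block together. Its promoter holds matches of the oleate response element at chrVII:107846-107868 and chrVII:107883-107905.
POX1, distal match: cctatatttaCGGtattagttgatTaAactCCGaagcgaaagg
POX1, proximal match: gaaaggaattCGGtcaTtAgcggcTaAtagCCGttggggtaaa

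The other genes of that list named for the size of their difference were STR3, a lyase of sulfur amino acid metabolism, at 0.56 ± 0.27 (adjusted p = 0.225), and PXA1, a subunit of the fatty acid transporter, at -0.48 ± 0.18 (adjusted p = 0.141). After the GC-content correction these were 0.51 ± 0.27 and -0.28 ± 0.13, and without parent replicate 2 they were 0.29 and -0.23. FOX2, the multifunctional enzyme of β-oxidation, named after its values were seen, was at -0.36 ± 0.09 (adjusted p = 0.0698) and at -0.40 ± 0.07 (adjusted p = 0.0382) after the GC-content correction. POT1, the thiolase that ends the cycle, also named after its values were seen, was at -0.0038 ± 0.12, or -0.22 ± 0.14 after that correction. Among the 12 of these 21 genes with an element match the median was -0.23, with 10 below 0, and among the 9 without it was 0.07. After the GC-content correction those medians were -0.18 and -0.0099. The assembly genes had a median of -0.03 both with a match (8 genes) and without one (22 genes), or -0.02 and 0.04 after that correction, and the 124 tested genes with a match had a median of -0.05. These medians are descriptions, and no difference between them was tested.

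**Figure D5:**
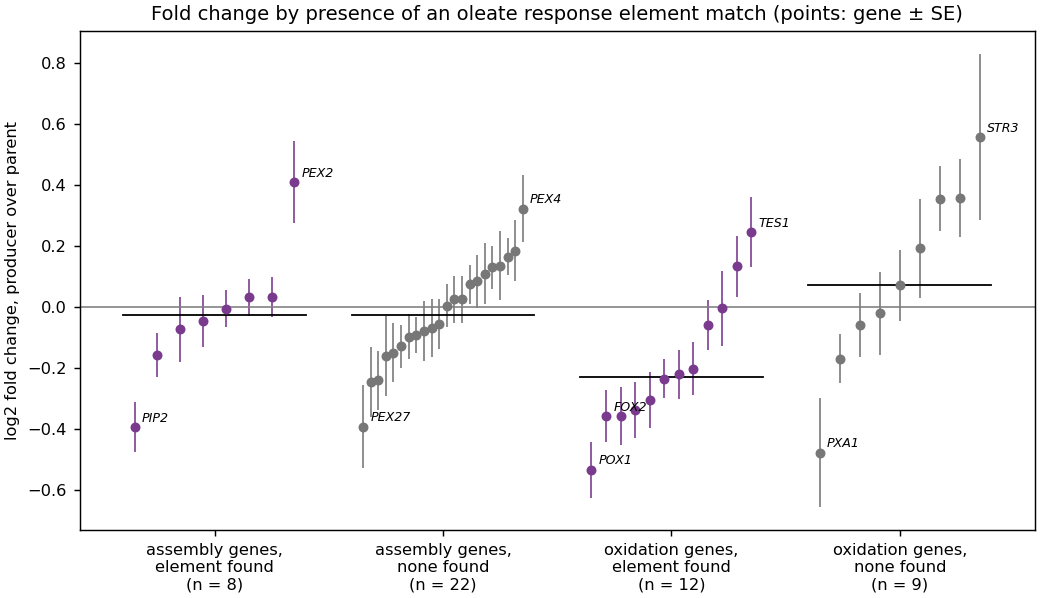
Log2 fold change, producer over parent, with its SE, for assembly genes and for oxidation and matrix genes, split by whether an oleate response element match lies within 500 bases before the start codon; horizontal bars are medians. The 12 oxidation genes with a match have a median of -0.23, with POX1 lowest, and the 8 assembly genes with a match have a median of -0.03, with PIP2 lowest and PEX2 highest.

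The remaining genes of peroxisome biology, a list of 12 with further peroxins, the fission proteins, the pexophagy receptor and the regulators ADR1 and OAF3, gave 0 calls in edgeR, where 1.14% of all genes were called. At an unadjusted p under 0.05 there were 4 of 12, or 33.3%, against 27.3% of all genes. DESeq2 called 2 of 12, where it called 13.7% of all genes, and limma-voom called 0, where it called 64 of 6125. Their median log2 fold change was -0.10, with 8 of 12 below 0. After the GC-content correction the median was -0.01, and 1 of 12 had an unadjusted p under 0.05, against 1164 of 6063 genes. PEX9, a targeting signal receptor induced on oleate, was lowest at -0.46 ± 0.16 (adjusted p = 0.112), with 15.5, 14.3 and 16.7 CPM in the producer and 17.6, 26.7 and 19.9 CPM in the parent, without overlap. It was at -0.21 ± 0.10 (adjusted p = 0.308) after the GC-content correction and at -0.27 without parent replicate 2. PEX35 was at -0.28 ± 0.17 and did not pass, and these values for it were -0.01 ± 0.10 and -0.06. ADR1, named after its values were seen, was at -0.24 ± 0.08 (adjusted p = 0.105), and at -0.06 ± 0.06 after the GC-content correction.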

How the data were processed

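Per the file headers, the estimated counts per gene, deposited as whole numbers in 1 table per library, were made by the authors from StringTie files after duplicate removal. FastQC, HISAT2, SAMtools, Picard and DESeq2 with build sacCer3 are named in the submitters' processing notes. The library kit is stranded, per the labels' protocols, but versions and whether counting used strand are not stated in the sources. Duplicate removal may lower abundant transcripts. Tables were joined by gene name, and 6210 of 6445 names matched the RefSeq annotation of R64. None of the 30 genes shares an exact run of 50 bases with another part of the genome.

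The main test was edgeR 4.0.16 (R 4.3.3), quasi-likelihood, two-sided, with filterByExpr, TMM and the group as the only term, and Benjamini-Hochberg adjustment over all 6125 genes, with a threshold of 0.05. SE is the log2 fold change over the square root of F. The GC-content correction took a loess trend (span 0.5, fitted on genes with 5 CPM or more) from every library, for 6063 genes. DESeq2 1.42.0 and limma 3.58.1 were alternatives. Some of the fits were also run on simulated counts, with an outcome not reported here. Those counts held no GC trend and no outlying library, so that run cannot show how the fits handle these features. Values in every library are given for the 3 largest and 3 smallest fold changes and for 9 genes listed by name, and those of further genes were added after their values were seen. Of the other lists, called genes and the 3 largest differences are named, except 1 gene that is not reported here. The genes, lists and tests were chosen with earlier results of these data known. Replicates share numbers across the strains, and deviations of same-numbered libraries from their group means had Pearson r of 0.238, -0.231 and -0.459. With 3 libraries of each strain, this check cannot exclude a shared batch. The main fit has no block.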

Additional observations from a re-analysis of the deposited data

How the results depend on the processing

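The count of 0 among the 30 assembly genes held in 15 of 18 alternatives and became 1 with upper-quartile factors, 2 in DESeq2 and 0 to 4 when libraries were left out in turn. Of all genes, 70 were called, 842 in DESeq2, 10 with log2 library total as covariate, 26 with the GC-content correction and replicate block together, and 15 to 1077 when libraries were left out. The replicate block alone gave 104 and called 0 of the 30. Whether same-numbered libraries share more than a number could not be settled. The oxidation and matrix count of 1 became 10 in DESeq2, 2 with the GC-content correction, 0 with that correction and the block, 0 with log2 library total as covariate, and 0 to 8 with libraries left out. The count of 0 of 12 other genes became 2 in DESeq2 and 0 to 1 with libraries left out. The median of the 30 was -0.075 with library totals only, 0.04 with the GC-content correction, with or without the block (0.03959 and 0.03995), and 0.015 with log2 library total as covariate. The order of levels per length was the same with library totals only. There the ranges of PEX32 and INP2 overlapped, with a lowest PEX32 library of 35.07 and a highest INP2 library of 36.75 CPM per kb. Gene length equals coding length for these genes, so that alternative could not change the order.

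Of 540 log2 fold changes in the alternatives, 47 had another sign than in the main fit, in 17 genes with main values of at most 0.16 in size, and the cause was not tested. After the GC-content correction these were PEX14 at -0.028, PEX17 0.068, PEX15 0.017, PEX19 0.043, PEX31 0.038, INP1 0.086, INP2 0.14 and OAF1 0.039, and with the replicate block added PEX14 at -0.028, PEX17 0.065, PEX15 0.017, PEX19 0.043, PEX31 0.035, INP1 0.086, INP2 0.14 and OAF1 0.039. With log2 library total as covariate they were PEX5 at 0.099, PEX7 -0.033, PEX21 -0.062, PEX17 0.036, PEX25 0.084, PEX30 -0.037, PEX31 0.0073, INP1 0.022, INP2 0.070 and ANT1 -0.021. With library totals only they were PEX7 at -0.024, PEX13 -0.017, PEX14 -0.043, PEX10 -0.026 and ANT1 -0.016. PEX11 was at 0.00030 in DESeq2 and 0.00034 with RLE factors, and PEX14 at -0.0097 with upper-quartile factors. With libraries left out, the ranges were -0.12 to 0.022 for INP1, -0.12 to 0.0017 for INP2, -0.037 to 0.060 for PEX10, -0.030 to 0.033 for PEX11, -0.014 to 0.067 for PEX13, -0.033 to 0.050 for PEX14, -0.28 to 0.012 for PEX25, -0.15 to 0.038 for PEX5 and -0.026 to 0.060 for PEX7. Counts of the 30 genes were 1107 or more in every library, and the part of counting error in each value was not estimated.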
